A study of Mus musculus with 26 samples.

Results

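The 10 genes described here are known for their part in blood vessels and were measured in bulk mouse choroid plexus (ChP). They are the angiopoietin ligands Angpt1 and Angpt2, their receptors Tek and Tie1, and the VEGF receptors Kdr and Flt1. The others are the co-receptor Eng, the Notch receptor Notch4, the Notch ligand Jag1 and the fenestral protein gene Plvap. The genes were taken by symbol from the deposited tables, and all 10 were found among the 55416 genes listed. All 10 also passed the minimum level for testing, which left 13697 genes.

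ChP of the 4th ventricle had been collected from adult male C57Bl6J mice after sham surgery (Ctrl, n = 12) or after surgical ablation of the suprachiasmatic nuclei, the seat of the central clock (SCNx, n = 12). Each group held 1 mouse every 4 h from CT0 to CT44 in constant darkness, so a library is named by its group and circadian time (CT). A further 2 adult males of the genotype FoxJ1-ERT2-Cre+/-; Bmal1fl/fl had received tamoxifen in the diet and were kept in a light-dark cycle (KO), 1 sampled at zeitgeber time ZT7 and 1 at ZT18. In these KO mice Cre is driven by Foxj1, a gene of cells with motile cilia, so recombination is aimed at the epithelium and not at the vessel wall. Ctrl and SCNx tissue was dissected with pincers and KO tissue was cut from frozen sections by laser capture and sequenced with another library kit.

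Vessels of the ChP are fenestrated, unlike the tight capillaries of the brain around them, and the diaphragms of these fenestrae are built from the protein of Plvap. Angpt1, made mainly by mural and other mesenchymal cells, activates TIE2, the receptor encoded by Tek, and stabilises the vessel, whereas Angpt2 comes from the endothelium itself and can oppose it, with Tie1 as a modulating co-receptor. Kdr encodes the main signalling receptor for VEGF-A, on whose supply by the epithelium these fenestrated capillaries depend, and Flt1 encodes a receptor that binds VEGF and acts largely as a sink. Eng encodes endoglin, a co-receptor for BMP9 and other TGF-β family ligands, and Notch4 and Jag1 belong to the Notch pathway between neighbouring vascular cells.

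Values are CPM (counts-per-million), scaled by edgeR's TMM factors in Ctrl and SCNx and by the total count in KO. Ctrl libraries held 38751201 to 47335258 estimated counts, SCNx libraries 41807043 to 49527655 and the KO libraries 17425207 and 18059227. Behind the least abundant of the 10 genes, Angpt1, stood 156 to 428 counts per Ctrl library. Some libraries held RNA of other tissues. Summed over 10 hepatocyte genes, Ctrl CT16 reached 2645 CPM and SCNx CT0 11300 CPM, against group medians of 2.01 and 3.89 CPM, and 4 markers of liver sinusoidal endothelium summed to 3.72 and 15.4 CPM there. Ctrl CT4 and SCNx CT32 stood out with 320 and 336 CPM of 8 neuronal and cerebellar genes, against medians of 17.2 and 15.4 CPM.

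The endothelial share of the libraries varied widely from mouse to mouse, and most of the 10 genes varied with it. Plvap and Kdr together ran from 56.3 CPM (CT24) through a median of 76.8 to 129 CPM (CT8) in Ctrl, and from 59.7 CPM (CT20) through 99.3 to 146 CPM (CT28) in SCNx. The ranges of both groups overlapped over most of their length. Summed over 12 further endothelial genes, among them Pecam1, Cdh5 and Emcn, the levels were 82.9 to 204 CPM in Ctrl and 99.0 to 222 CPM in SCNx, which shows the labelled tissue to have held vessels in every library. In bulk tissue fewer endothelial cells and less RNA per endothelial cell cannot be told apart, and this holds for each level given here.

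**Figure D1:**
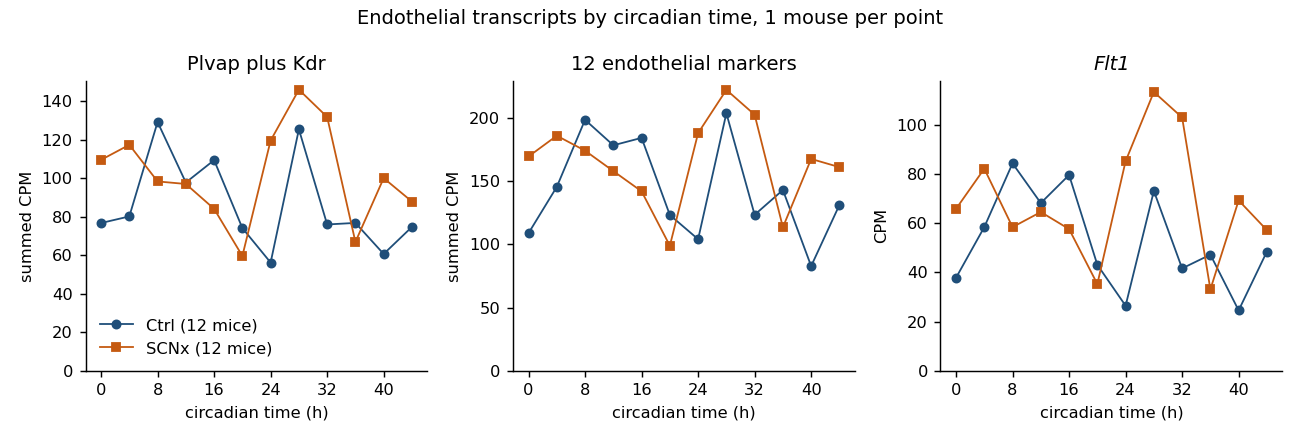
Summed CPM of Plvap and Kdr (left), summed CPM of 12 endothelial markers (middle) and CPM of Flt1 (right) against circadian time in hours, 1 mouse per point joined in order of time, for Ctrl (circles) and SCNx (squares). Ctrl CT8 and CT28 and SCNx CT28 and CT32 are high in all 3 panels, and Plvap plus Kdr spans 56.3 to 129 CPM in Ctrl and 59.7 to 146 CPM in SCNx.

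Plvap itself lay between 9.55 CPM (CT40) and 37.0 CPM (CT8) in Ctrl with a median of 20.1 CPM, and between 10.3 CPM (CT20) and 40.4 CPM (CT28) in SCNx with a median of 28.5 CPM. Within Ctrl the mice sampled a day apart at the same phase could differ strongly, as at CT4 and CT28 with 19.1 and 34.7 CPM. A 24 h cosine fitted to Ctrl had a log2 amplitude of 0.46 ± 0.22 (SE, n = 12) and did not pass the test for a rhythm (edgeR, adjusted p = 0.255). None of the 12 endothelial markers passed it either, against 11.1% of all genes tested.

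Of the 10 genes, 4 were rhythmic in Ctrl, namely Angpt1, Angpt2, Eng and Notch4 (edgeR quasi-likelihood F test, Benjamini-Hochberg adjusted p under 0.05). The background was 11.1% of all genes tested. At an unadjusted p under 0.05 Jag1 was added, giving 5 of 10, against 25.0% of all genes. The median log2 amplitude of the 10 genes was 0.35 in Ctrl and 0.33 in SCNx, against 0.11 and 0.091 for all tested genes. The 12 endothelial markers had medians of 0.29 in Ctrl and 0.32 in SCNx. The authors had picked Angpt1, Angpt2, Eng, Notch4 and Jag1 from these same libraries, so the calls of these genes are not independent evidence. They had used other rhythm methods and a looser threshold, so a gene they list as rhythmic, such as Jag1, can fail the test here.

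Angpt1 was high in the subjective day and low in the subjective night of Ctrl mice. It measured 8.06, 8.35 and 8.25 CPM at CT0, CT4 and CT8, and 5.18, 4.51 and 4.37 CPM at CT12, CT16 and CT20. In the second cycle it measured 5.31, 9.29 and 5.49 CPM at CT24, CT28 and CT32, and 3.89, 3.26 and 4.17 CPM at CT36, CT40 and CT44. All 6 mice of the subjective day were thus above all 6 of the subjective night. The fitted curve had its maximum at 4.23 h, and its log2 amplitude was 0.60 ± 0.10 (SE, n = 12), a 2.31-fold change from trough to peak (edgeR, adjusted p = 0.0176). Leaving out either of 2 libraries ended the call, with an edgeR adjusted p of 0.0525 without Ctrl CT28 and of 0.0538 without Ctrl CT40.

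In SCNx mice Angpt1 ranged from 3.79 CPM (CT20) to 10.2 CPM (CT32) with a median of 6.95 CPM. High and low mice alternated in the second cycle, with 10.2, 4.38, 9.17 and 4.48 CPM at CT32, CT36, CT40 and CT44. The amplitude was 0.24 ± 0.18 (SE, n = 12) on the log2 scale and no rhythm was called (edgeR, adjusted p = 0.560). SCNx CT32, where Angpt1 was highest, is also the library rich in neuronal RNA, and the part of this in the value was not tested.

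Angpt2 ran on another phase. In Ctrl it was lowest at CT36 with 4.76 CPM, had a median of 6.72 CPM and was highest at CT44 with 10.6 CPM. In the late subjective night it reached 8.39 CPM (CT20) and 10.6 CPM (CT44), the top values of their cycles, and around dusk it measured 5.50, 5.94, 5.83 and 4.76 CPM at CT8, CT12, CT32 and CT36. The maximum of the fit lay at 20.95 h, and its log2 amplitude was 0.34 ± 0.082 (SE, n = 12), a 1.60-fold change from trough to peak (edgeR, adjusted p = 0.0116). Without Ctrl CT44 the amplitude fell to 0.26 and the call was lost (edgeR, adjusted p = 0.0858).

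In SCNx mice Angpt2 stayed between 5.45 CPM (CT0) and 7.66 CPM (CT16). Its standard deviation over the 12 mice was 0.643 CPM, against 1.54 CPM in Ctrl, and the log2 amplitude was 0.068 ± 0.061 (edgeR, adjusted p = 0.811). Ctrl thus held both the lowest and the highest Angpt2 values of the 24 mice.

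The ratio of Angpt2 to Angpt1 changed with time in Ctrl, where the fitted maxima of both ligands lay at 4.23 h for Angpt1 and 20.95 h for Angpt2. As CPM is not corrected for transcript length, only its change between libraries can be read. In Ctrl it was 0.668 at CT8, 1.92 at CT20, 0.776 at CT28 and 2.55 at CT44. Each cycle thus had its lowest ratio in the subjective day and its highest in the late night. In SCNx it ranged from 0.613 (CT32) to 1.70 (CT20), and in the second cycle it measured 1.32, 0.682 and 1.33 at CT36, CT40 and CT44. No test was made of this ratio.

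**Figure D2:**
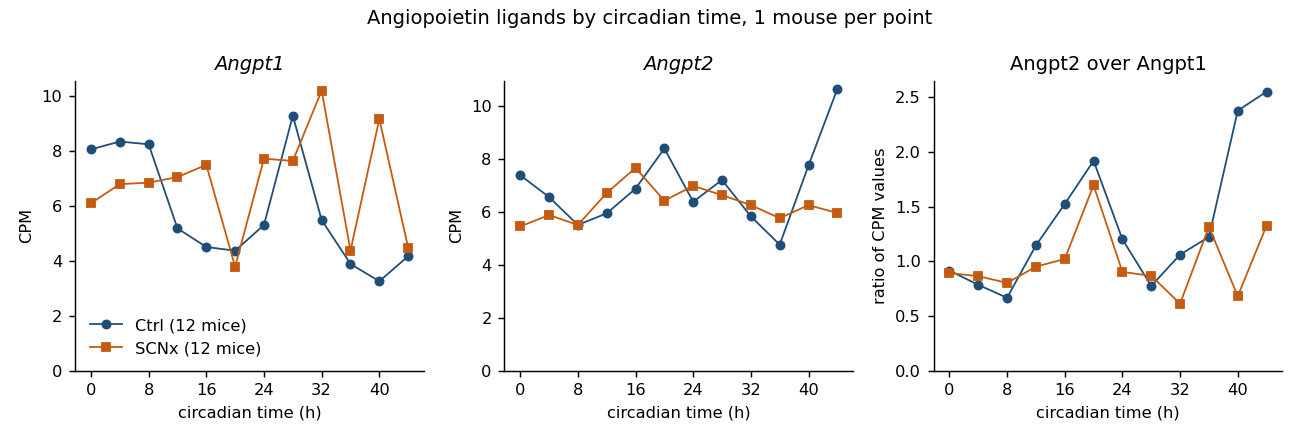
CPM of Angpt1 (left) and Angpt2 (middle) and the ratio of both CPM values (right) against circadian time in hours, 1 mouse per point joined in order of time, Ctrl as circles and SCNx as squares. Ctrl mice show Angpt1 falling from 8.25 to 4.37 CPM between CT8 and CT20 while Angpt2 rises from 5.50 to 8.39 CPM, and the ratio reaches 1.92 at CT20 and 2.55 at CT44.

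The receptors of both ligands followed the endothelial content. Tek, which encodes TIE2, measured 7.38 CPM (CT40) to 18.4 CPM (CT16) in Ctrl with a median of 10.5 CPM, and 8.12 CPM (CT20) to 20.8 CPM (CT32) in SCNx with a median of 14.6 CPM. Tie1 measured 9.01 CPM (CT40) to 23.2 CPM (CT12) in Ctrl with a median of 14.9 CPM, and 10.4 CPM (CT36) to 27.2 CPM (CT28) in SCNx with a median of 20.7 CPM. Neither had a called rhythm in Ctrl, with edgeR adjusted p = 0.692 for Tek and 0.307 for Tie1. The highest Tek value of Ctrl was that of the liver-rich library CT16. Of 5 further genes of this axis, 3 were tested and none was called in Ctrl, against 11.1% of all genes tested. Among the 3 was Ptprb, the phosphatase that dampens TIE2, with an amplitude of 0.37 (edgeR, adjusted p = 0.413).

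The VEGF receptors behaved alike. Kdr ran from 44.4 CPM (CT24) through a median of 57.3 to 92.3 CPM (CT8) in Ctrl, and from 49.4 CPM (CT20) through 70.8 to 106 CPM (CT28) in SCNx. Flt1 had the wider spread, from 24.6 CPM (CT40) through 47.8 to 84.3 CPM (CT8) in Ctrl and from 33.1 CPM (CT36) through 65.2 to 113 CPM (CT28) in SCNx. The Ctrl rhythm was not called for Kdr (amplitude 0.20 ± 0.14, adjusted p = 0.486) or Flt1 (0.37 ± 0.23, adjusted p = 0.450) in edgeR's test. Of 8 further VEGF ligands and receptors, 1 was called in Ctrl, against 11.1% of all genes tested. It was Flt4, the receptor for VEGF-C, with an amplitude of 0.71 and a peak at 8.84 h (edgeR, adjusted p = 0.0376). Flt4 was among the transcripts closest to Plvap (Pearson r of log2 CPM 0.96), and its fit with an endothelial covariate is not given here. Vegfa, at a mean of 111 CPM in Ctrl and 111 CPM in SCNx, had an amplitude of 0.14 in Ctrl (edgeR, adjusted p = 0.148).

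Eng and Notch4 rose and fell together and peaked near the end of the subjective day in Ctrl. Eng was lowest at CT40 with 34.3 CPM, had a median of 43.6 CPM and was highest at CT12 with 73.8 CPM. At CT12 and CT36 it measured 73.8 and 66.5 CPM, and at CT0, CT20, CT24 and CT44 it measured 37.7, 37.3, 34.4 and 36.3 CPM. The fit placed its maximum at 10.3 h, and the log2 amplitude was 0.47 ± 0.11 (SE, n = 12), a 1.92-fold change from trough to peak (edgeR, adjusted p = 0.0176). Without Ctrl CT12 the call was lost (edgeR, adjusted p = 0.0632).

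Notch4 was lowest at CT40 with 5.10 CPM, had a median of 7.36 CPM and was highest at CT12 with 13.3 CPM in Ctrl. The second cycle was topped by CT36 with 11 CPM, 1 day after the first maximum. Its fitted maximum was at 10.9 h, and the log2 amplitude was 0.45 ± 0.14 (SE, n = 12), a 1.87-fold change (edgeR, adjusted p = 0.0368). This was the least stable call of the 4. It was lost in turn without each of 7 Ctrl libraries (CT0, CT8, CT12, CT20, CT24, CT36 and CT44), with adjusted p between 0.0579 and 0.151, and with limma (adjusted p = 0.0512).

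In SCNx mice Eng measured 29.4 CPM (CT20) to 68.2 CPM (CT4) with a median of 58.0 CPM, and Notch4 5.85 CPM (CT36) to 11.6 CPM (CT28) with a median of 9.55 CPM. Both were high there from CT0 to CT12 and from CT24 to CT32, at least 57.0 CPM for Eng and 9.50 CPM for Notch4. Eng was high at CT40 as well, with 59.4 CPM, when Notch4 was at 9.21 CPM. The fitted maxima lay at 5.65 h for Eng and 4.06 h for Notch4, and neither rhythm was called (edgeR, adjusted p = 0.222 and 0.383). Over the 24 libraries of both groups the log2 CPM of Eng and Notch4 had a Pearson r of 0.93, as a description over libraries that share group, time and dissection.

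Since Eng and Notch4 moved together, the 250 bases before their annotated start are shown, from RefSeq on GRCm38.p6, 5′ to 3′ on the strand of the gene. Capitals mark GGAA or its reverse complement TTCC, the core bound by ETS factors, which are known for their part in endothelial genes. The stretch of Eng lies on the plus strand at chr2:32646345-32646594 and that of Notch4 on the plus strand at chr17:34564045-34564294, both directly upstream of the first exon.
Eng: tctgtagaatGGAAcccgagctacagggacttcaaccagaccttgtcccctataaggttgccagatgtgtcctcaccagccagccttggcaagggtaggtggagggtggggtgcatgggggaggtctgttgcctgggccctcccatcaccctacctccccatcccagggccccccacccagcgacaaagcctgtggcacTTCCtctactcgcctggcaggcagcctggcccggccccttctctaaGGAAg
Notch4: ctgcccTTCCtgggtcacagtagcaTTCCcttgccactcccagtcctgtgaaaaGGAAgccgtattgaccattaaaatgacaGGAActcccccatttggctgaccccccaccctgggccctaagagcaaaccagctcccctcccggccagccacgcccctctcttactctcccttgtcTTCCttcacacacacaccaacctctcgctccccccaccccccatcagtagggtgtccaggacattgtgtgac
The core occurs 3 times in the window of Eng and 5 times in that of Notch4, and such a short word stands in 93.4% of 32851 promoter windows of this length, with a median of 3 matches. Promoters of 7 of the 10 genes were matched by symbol (Tek, Tie1, Kdr, Flt1, Eng, Notch4 and Jag1). None of these 7 windows holds CACGTG (E-box), TTATGTAA (D-box), AGGTCA (ROR and REV-ERB site) or the glucocorticoid response element on either strand, against 6.02%, 0.819%, 14% and 0.387% of all windows. This says only that these letters are not in these windows.

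**Figure D3:**
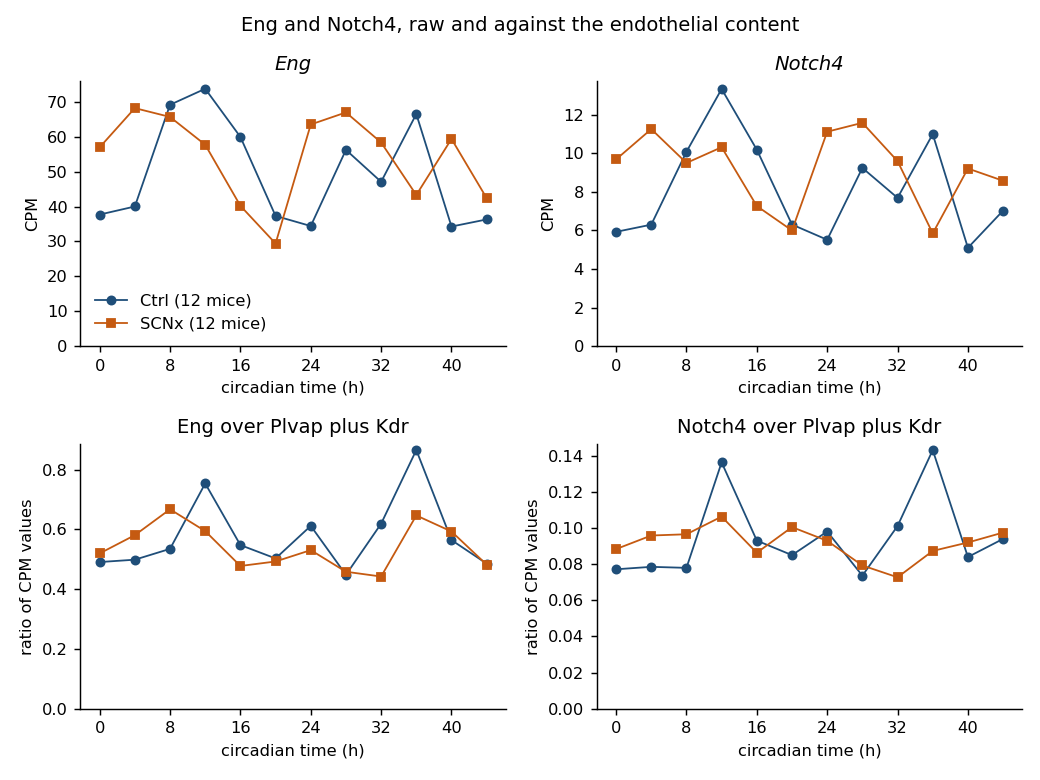
CPM of Eng and Notch4 (upper row) and their ratio to Plvap plus Kdr CPM of the same library (lower row) against circadian time in hours, 1 mouse per point joined in order of time, Ctrl as circles and SCNx as squares. In Ctrl the ratios are highest at CT12 and CT36, with 0.754 and 0.865 for Eng and 0.136 and 0.143 for Notch4.

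Jag1 varied least of the 10 genes by its range in CPM relative to its median in Ctrl, from 10.8 CPM (CT24) through 12.8 to 16.2 CPM (CT16), and measured 12.5 CPM (CT0) to 15.7 CPM (CT24) in SCNx. Its amplitude in Ctrl was 0.17 ± 0.067 (SE, n = 12) with a peak at 10.4 h and was not called (edgeR, adjusted p = 0.128). Without the liver-rich libraries Ctrl CT16 and SCNx CT0 it was called, with an amplitude of 0.18 and a peak at 8.81 h (edgeR, adjusted p = 0.0227).

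The other genes of these pathways are given beside the 11.1% of all genes called rhythmic in Ctrl. Of 15 Notch pathway genes 14 were tested and 2 called, Lfng, which adds sugars to Notch receptors (amplitude 0.33, peak at 9.95 h, adjusted p = 0.00129 in edgeR), and the co-activator Maml1 (0.17, 10.2 h, adjusted p = 0.0391). Of 20 genes around endoglin and BMP signalling 18 were tested and 1 called, Id2, a target of BMP signals (0.20, 0.930 h, edgeR adjusted p = 0.0260). Of 6 caveola genes 1 was called, Cavin1 (0.18, 4.96 h, edgeR adjusted p = 0.0107). Of 4 genes listed for blood-brain barrier endothelium 1 was called, the transporter Slco1a4 (0.32, 8.87 h, edgeR adjusted p = 0.000377). Slco1a4 averaged 144 CPM in Ctrl, against 2.84 CPM for Mfsd2a, 9.98 CPM for Abcb1a and 28.2 CPM for Abcg2 of this list. Kdr averaged 64 CPM there. Which cells the Slco1a4 transcripts came from was not tested. No gene of these lists was called in SCNx.

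Some markers of the cells around the endothelium were rhythmic in Ctrl too, again beside 11.1% of all genes. Of 11 mural cell genes 10 were tested and 3 called in Ctrl, Kcnj8, Cspg4 and Pdgfrb, with peaks at 9.61, 7.77 and 7.48 h (edgeR, adjusted p = 0.0104, 0.0335 and 0.0368). Summed, the mural genes spanned 203 to 490 CPM in Ctrl and 216 to 490 CPM in SCNx. Of 6 fibroblast genes 4 were called, Pdgfra at 12.2 h, Col1a1 at 4.99 h, Col3a1 at 3.51 h and Col1a2 at 8.08 h (edgeR, adjusted p = 0.00296, 0.0127, 0.0199 and 0.0345), and their sum spanned 438 to 591 CPM in Ctrl and 506 to 586 CPM in SCNx.

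The genes were then set against the endothelial content. With the mean log2 CPM of the 12 markers as an endothelial index, 8 of the 10 genes correlated with it in Ctrl, all positively, and 8 in SCNx (permutation test, 100000 permutations, two-sided, 20 relations, Benjamini-Hochberg adjusted p under 0.05). The calls left out Angpt1 and Angpt2 in Ctrl and Angpt2 and Jag1 in SCNx. The share of all tested genes that correlate with the index was not computed, so these counts have no background beside them. Angpt2 had r = -0.36 and rho = -0.38 in Ctrl (permutation p = 0.260 and 0.227, adjusted 0.289 and 0.253) and r = -0.076 and rho = -0.042 in SCNx (permutation p = 0.814 and 0.904, adjusted 0.814 and 0.904). Without the 2 farthest libraries its r was -0.40 in Ctrl and -0.38 in SCNx.

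Tek correlated with the index at r = 0.94 and rho = 0.92 in Ctrl and at r = 0.97 and rho = 0.94 in SCNx (each adjusted permutation p at most 0.0002, raw p = 1e-05 for r, the smallest that the permutations can give). Flt1 had r = 0.95 in Ctrl and 0.93 in SCNx, Tie1 0.96 and 0.92, Plvap 0.93 and 0.92, and Kdr 0.84 and 0.94, with adjusted permutation p for r between 4e-05 and 0.00074 and rho between 0.85 and 0.97. Without the 2 farthest libraries r stayed between 0.87 and 0.95 in Ctrl and between 0.70 and 0.91 in SCNx for these 5 genes.

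Eng had r = 0.80 and rho = 0.82 in Ctrl (permutation p = 0.0021 and 0.00188, adjusted 0.003 and 0.00313) and r = 0.82 and rho = 0.72 in SCNx (p = 0.00202 and 0.0106, adjusted 0.003 and 0.0141). Notch4 had r = 0.81 and rho = 0.78 in Ctrl (permutation p = 0.00154 and 0.00428, adjusted 0.00257 and 0.00611) and r = 0.90 and rho = 0.78 in SCNx (p = 0.00047 and 0.00358, adjusted 0.000855 and 0.00551). Without the 2 farthest SCNx libraries both calls were lost while r stayed positive, at 0.60 for Eng (adjusted permutation p = 0.0809) and 0.64 for Notch4 (adjusted permutation p = 0.0674).

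Angpt1 had r = 0.53 and rho = 0.48 in Ctrl (permutation p = 0.0763 and 0.116, adjusted 0.0898 and 0.137) and r = 0.72 and rho = 0.59 in SCNx (p = 0.00935 and 0.0464, adjusted 0.0117 and 0.0579). Without the 2 farthest libraries r was 0.13 in Ctrl and 0.24 in SCNx, so that the relation in SCNx rested on 2 libraries. Jag1 had r = 0.73 and rho = 0.83 in Ctrl (permutation p = 0.00672 and 0.00127, adjusted 0.00896 and 0.00231), and r = 0.20 and rho = 0.35 in SCNx (p = 0.527 and 0.267, adjusted 0.554 and 0.281). Without the 2 farthest libraries r for Jag1 was 0.93 in Ctrl and 0.48 in SCNx.

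With the log2 sum of Plvap and Kdr as a covariate of the fit, the same 4 genes were called rhythmic in Ctrl among the 8 others, against 10% of all genes in that fit. Angpt1 peaked at 2.69 h with an amplitude of 0.54 (edgeR, adjusted p = 0.00091) and Angpt2 at 20.85 h with 0.39 (adjusted p = 0.00803). The amplitudes of Eng and Notch4 dropped from 0.47 and 0.45 to 0.33 and 0.32, with peaks at 11.2 and 12.2 h (edgeR, adjusted p = 0.0170 and 0.0337). Those of Tie1 and Flt1 dropped from 0.33 and 0.37 to 0.12 and 0.038 and were not called (edgeR, adjusted p = 0.497 and 0.934).

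The index of 12 markers as a covariate gave the same 4 calls, against 8.64% of all genes, with amplitudes of 0.52 for Angpt1, 0.36 for Angpt2 and 0.31 for Eng and Notch4 (edgeR, adjusted p = 0.0123, 0.0235, 0.0142 and 0.0142). Plvap had an amplitude of 0.056 in that fit, against 0.46 without the covariate. Adding a second covariate was an alternative chosen after the data had been seen. With the mean of 6 fibroblast markers added, the 4 genes were called (edgeR, adjusted p between 0.0191 and 0.0456), against 7.32% of all genes. With the mean of 11 mural markers added instead, 5.91% of all genes were called. Angpt1 and Notch4 passed (edgeR, adjusted p = 0.0181 and 0.0187), whereas Angpt2 and Eng did not (adjusted p = 0.0945 and 0.0520), with amplitudes of 0.31 and 0.27.

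**Figure D4:**
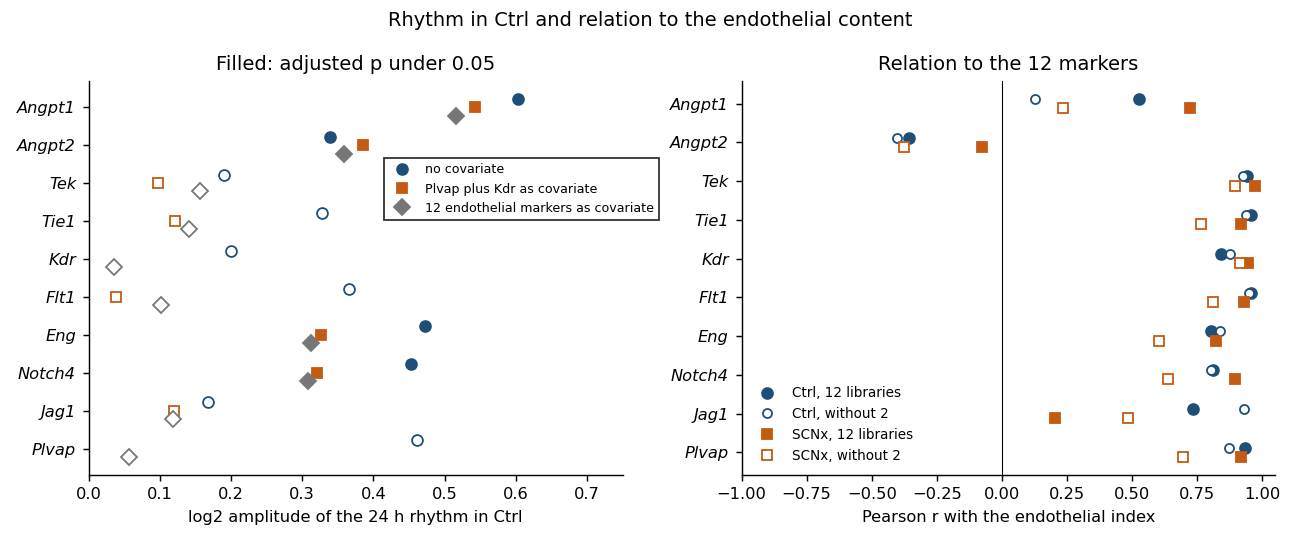
Left, log2 amplitude of the fitted 24 h rhythm in Ctrl for each gene without a covariate (circles), with Plvap plus Kdr (squares) and with 12 endothelial markers (diamonds) as covariate, filled where edgeR's adjusted p was under 0.05. Right, Pearson r of each gene's log2 CPM with the index of 12 endothelial markers over the 12 libraries of Ctrl (circles) and of SCNx (squares), open symbols without the 2 farthest libraries. Angpt1, Angpt2, Eng and Notch4 are filled in all 3 fits, and only Angpt2 has a negative r in both groups.

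The ratio to Plvap plus Kdr was also read in each library. For Eng it had a median of 0.541 in Ctrl and was highest at CT12 and CT36, with 0.754 and 0.865, while the other 10 Ctrl mice lay between 0.448 and 0.619. For Notch4 it had a median of 0.0890 in Ctrl and reached 0.136 and 0.143 in the same mice, above the 0.101 of CT32 and all others. In SCNx the ratio of Eng spanned 0.442 to 0.667 and that of Notch4 0.0727 to 0.106. None of the 12 SCNx mice reached the values of Ctrl CT12 and CT36, which are named as the highest of Ctrl. A difference of the rhythm between the groups was not called for either gene with Plvap plus Kdr as covariate. The edgeR adjusted p was 0.401 for Eng and 0.267 for Notch4, against 1.42% of all genes called. The ratio for Angpt2 ran from 0.0426 (CT8) to 0.142 (CT44) in Ctrl and from 0.0454 (CT28) to 0.108 (CT20) in SCNx. As Angpt2 had no called correlation with the endothelial index, this ratio also carries the variation of Plvap plus Kdr. Their sum was highest in Ctrl at CT8, with 129 CPM. With the sum of the 12 endothelial markers as denominator, Eng in Ctrl had 0.4648 at CT36, 0.4132 at CT12 and 0.4135 at CT40. CT12 thus did not stand apart for Eng with this denominator. Notch4 was still highest at CT36 and CT12, with 0.0768 and 0.0747.

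In SCNx none of the 10 genes was rhythmic by edgeR's test with adjusted p under 0.05, nor by limma or DESeq2, and over all genes 0.00% were called in that group by edgeR. At an unadjusted p under 0.05 there were 2 of 10, Kdr (p = 0.0260) and Eng (p = 0.0160), against 15% of all genes. DESeq2 called 432 genes rhythmic in SCNx, none of them among the 10. A call in Ctrl and none in SCNx does not show a difference, which was therefore tested by itself. No gene of the 10 passed this test in edgeR, limma or DESeq2, against 2.29% of all genes in edgeR, and the smallest edgeR adjusted p were 0.141 for Notch4, 0.197 for Eng, 0.255 for Angpt2 and 0.306 for Angpt1. At an unadjusted p under 0.05 these 4 passed, against 15.3% of all genes.

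With Plvap plus Kdr as covariate the rhythm of Angpt1 differed between the groups (edgeR, adjusted p = 0.00698), against 1.42% of all genes called in that fit. The fitted curves then had amplitudes of 0.54 with a peak at 2.69 h in Ctrl and of 0.25 with a peak at 13.2 h in SCNx. With the 12 markers as covariate the difference was not called (edgeR, adjusted p = 0.0723), against 1.34% of all genes. With fibroblast or mural markers added to these it was not called for any of the 10 genes, against 1.02% and 0.759% of all genes.

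The level over all time points did not differ between SCNx and Ctrl for any of the 10 genes by edgeR's test, and 0.00% of all genes were called. None of the 10 passed an unadjusted p of 0.05 either, against 4.44% of all genes higher and 4.87% lower in SCNx, and limma and DESeq2 called none of them. The fitted level was higher in SCNx for 9 of 10, and for 7650 of all 13697 tested genes. Most of the 10 varied together with the endothelial content, so they do not count as independent observations. The median log2 fold change was 0.22 over these 10 and 0.010 over all tested genes. The sizes ran from 0.080 ± 0.061 (SE) for Jag1 to 0.38 ± 0.21 for Flt1 (edgeR, adjusted p = 0.695 and 0.588), and Angpt2 was the exception with -0.14 ± 0.097 (adjusted p = 0.671). The 12 endothelial markers had a median of 0.19, with 10 of 12 fitted higher. Of other markers, 6 of 6 macrophage genes were fitted higher in SCNx (median 0.17) and 2 of 10 epithelial genes (median -0.052), none of them called, and their part in the levels was not tested. With Plvap plus Kdr as covariate the fold changes of the 8 other genes lay between -0.12 for Angpt2 and 0.060 for Tek. With the 12 markers as covariate those of the 10 genes lay between -0.10 for Angpt2 and 0.15 for Flt1, with 0.12 for Tek, and none was called (edgeR, adjusted p at least 0.748).

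In the KO mice the targeted gene, Arntl (Bmal1), was still detected, at 10.6 CPM at ZT7 and 9.36 CPM at ZT18. In Ctrl it ran from 1.99 CPM (CT36) to 39.6 CPM (CT0), and at CT8, CT16 and CT20 it measured 2.95, 6.76 and 27.7 CPM. Counts of the whole gene include transcript that lacks only the floxed exon. With 1 mouse per time, another kit, another way of dissection and a light-dark cycle, the KO values were only set beside the others. Summed epithelial markers were 82330 and 86900 CPM in KO against 142700 to 167000 CPM in Ctrl, and 5 astrocyte genes summed to 743 and 866 CPM against a Ctrl median of 146 CPM.

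All 10 genes were higher in the ZT18 library than in the ZT7 library, least for Angpt1 and most, 2.10-fold, for Notch4. From ZT7 to ZT18 the summed markers of other kinds were higher as well, with 151 and 193 CPM for the 12 endothelial markers, 337 and 444 CPM for mural cells, 390 and 532 CPM for fibroblasts and 307 and 446 CPM for oligodendrocytes, while epithelial markers were lower, with 86900 and 82330 CPM. The part of this in the difference was not tested. The share of all genes that were higher at ZT18 was not computed. Angpt1 measured 8.21 CPM at ZT7 and 9.03 CPM at ZT18, and Angpt2 5.45 and 6.53 CPM, so that their ratio was 0.664 and 0.724. In Ctrl that ratio was 0.668 at CT8, 1.52 at CT16 and 1.92 at CT20, and in the second cycle 1.06 at CT32, 2.38 at CT40 and 2.55 at CT44. Eng measured 24.6 CPM at ZT7 and 43.5 CPM at ZT18, and Notch4 4.99 and 10.5 CPM, with the higher value of both at night.

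Against Plvap plus Kdr, which were at 98.0 and 119 CPM in the KO libraries, 3 genes lay outside the Ctrl range at both times. Flt1 had ratios of 0.936 and 0.946, above the Ctrl maximum of 0.728 and the SCNx maximum of 0.780. Eng had 0.251 and 0.367, below the Ctrl minimum of 0.448 and the SCNx minimum of 0.442. Tie1 had 0.117 and 0.145, below the Ctrl minimum of 0.148. The ratios of Angpt1, Angpt2 and Jag1 lay within the range of Ctrl at both times. The paper also gives a lower mean RNA integrity for the frozen KO samples and a higher age for the KO mice. Genotype, tamoxifen, age, light-dark cycle, RNA quality, kit and dissection cannot be told apart in these values. The share of all genes outside the Ctrl range of this ratio was not computed, so the count of 3 has no background beside it.

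**Figure D5:**
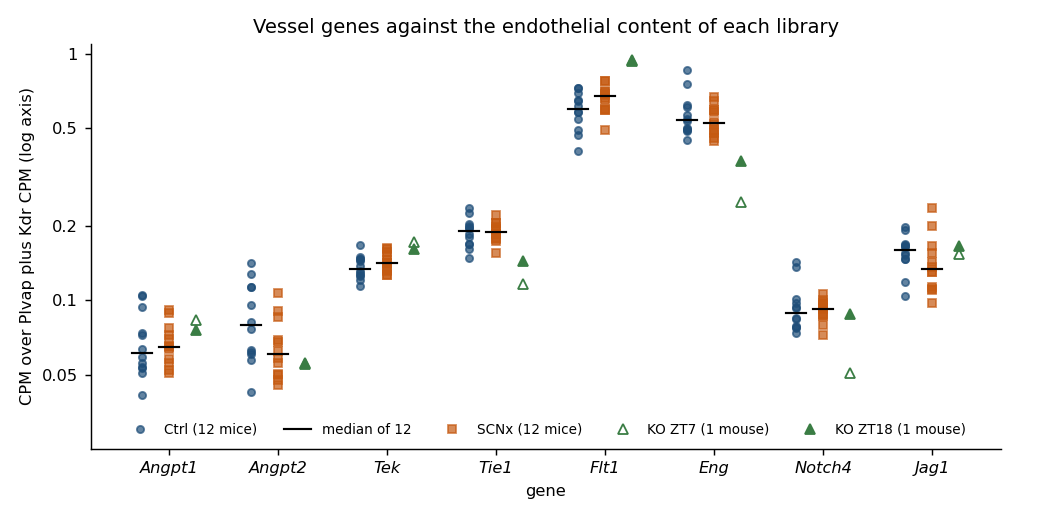
Ratio of each gene's CPM to the CPM of Plvap plus Kdr in the same library (log axis) for 12 Ctrl mice (circles), 12 SCNx mice (squares) and 2 KO mice (triangles, open at ZT7 and filled at ZT18), with bars at the medians of 12. Flt1 of KO mice lies above all other mice at 0.936 and 0.946, and Eng of KO mice below all others at 0.251 and 0.367.

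The transcripts with the most similar pattern over the 24 Ctrl and SCNx libraries separated the 10 genes further, by Pearson r of log2 CPM and as a description, since libraries share group, time and tissue makeup. Tek was closest to Ptprb (0.96), Pecam1 (0.94) and Acer2 (0.93), and Flt1 to Ptprb (0.97), Clic5 (0.97) and Arap3 (0.96). Tie1 was closest to Adgrf5 (0.96), Slc9a3r2 (0.95) and Podxl (0.95), and Plvap to Robo4 (0.97), Podxl (0.96) and Flt4 (0.96). Eng was closest to Cd300lg, Tgfbi and Col13a1 (0.94, 0.94 and 0.93), Notch4 to Mmrn2, Slc9a3r2 and Slc43a3 (0.93 each), and Kdr to Itga1, Dlc1 and Rgs5 (0.94, 0.93 and 0.92).

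Angpt1 was closest to Plat (0.90), Cdh11 (0.90) and Col4a1 (0.87), of which Cdh11 encodes a cadherin of mesenchymal cells and Col4a1 a basement membrane collagen. The nearest genes of Angpt2 were Rpe (0.83), Crem (0.83) and Pcnp (0.81), none of them a marker of vessels, and those of Jag1 were Ahnak, Wrn and Serinc3 (0.77, 0.77 and 0.76). Among the 10 genes, Angpt2 was the only one with a negative r to all 9 others, down to -0.53 with Eng.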

How the data were processed

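The authors ran the nf-core/rnaseq pipeline on GRCm39, with STAR and Salmon 1.9.0 among the tools in the submitters' processing notes, and deposited estimated counts per gene without normalization, in 1 table for Ctrl and SCNx and 1 for KO. The strand setting of the counting is not given in the sources used here.

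The estimated counts were rounded. A gene was tested where its mean CPM reached 1 in Ctrl and in SCNx. Counts were scaled with TMM and fitted in edgeR 4.0.16 under R 4.3.3, over 24 libraries, each group having its own mean, 24 h cosine and sine terms, and in a second model with the group means alone. Tests were quasi-likelihood F tests with Benjamini-Hochberg adjustment over all 13697 tested genes at 0.05. An amplitude is how far the fitted curve rises above its own mean, in log2, with its SE from a cosine fit to log2 CPM (prior count of 1). With 1 mouse per time point and group, p-values measure the spread of single mice around the curve or the group mean. KO libraries entered no test.

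The 10 genes and the gene lists were chosen with earlier results of these data known, and the ETS core was searched after the data had been seen. All 10 genes are named in each comparison. From each list up to 4 genes that passed are named by smallest p, others as examples, and for each of the 10 genes the 3 transcripts with the highest correlation. On simulated data the edgeR fit was run without and with a random covariate, and limma and DESeq2 were run too. The other alternatives were not simulated. Alternatives were DESeq2 1.42.0, limma 3.58.1, other scalings and filters, left-out libraries and covariates. Correlations and permutations were computed in Python 3.11.15 with numpy 2.4.6.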

Additional observations from a re-analysis of the deposited data

Results flagged for a closer look

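The fitted 24 h rhythm differed between SCNx and Ctrl by the interaction test for 2 genes of the pathway lists and of the marker lists other than hepatocytes. They were 1 of 4 genes listed for blood-brain barrier endothelium and 1 of 6 fibroblast genes, with none in the other lists. Over all tested genes 2.29% passed this test. Of 10 hepatocyte genes 9 passed it too, a list whose summed level was highest in Ctrl CT16 with 2645 CPM and in SCNx CT0 with 11300 CPM, against group medians of 2.01 and 3.89 CPM. Slco1a4 had a log2 amplitude of 0.32 in Ctrl and 0.037 in SCNx (edgeR, adjusted p = 0.0294). Its mean in Ctrl was 144 CPM, and which cells its transcripts came from was not tested. Pdgfra had 0.34 with a peak at 12.2 h in Ctrl and 0.15 with a peak at 2.03 h in SCNx (edgeR, adjusted p = 0.0149). Of the 10 vessel genes, Angpt1 differed between the groups with Plvap plus Kdr as covariate (edgeR, adjusted p = 0.00698) and not without it (adjusted p = 0.306).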

How the results depend on the processing

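The number of the 10 genes called rhythmic in Ctrl was 4 and lay between 2 and 5 with each library left out in turn. It was 2 without Ctrl CT12 or Ctrl CT44, and 2 with endothelial and mural markers as covariates. The number with a difference of the rhythm was 0 and lay between 0 and 1 with a library left out, the 1 being Notch4 without Ctrl CT40 (edgeR, adjusted p = 0.0346), and it was 1 with Plvap plus Kdr as covariate. No alternative run called any of the 10 genes in SCNx or between the group levels. The number correlated with the endothelial index in SCNx went from 8 to 5 without the 2 farthest libraries. Fold changes of SCNx against Ctrl turned sign in some covariate fits, none of them called. With Plvap plus Kdr they were -0.0076 for Tie1, -0.060 for Eng and -0.022 for Notch4, with the 12 markers -0.0037 for Eng and -0.00074 for Plvap, with fibroblast markers added -0.0044 for Eng, and with mural markers added -0.0016 for Plvap. The cause was not tested. Notch4 also lost its call without a filter on low counts (adjusted p = 0.0914 in edgeR), with a cycle term (0.0504) and in a separate fit per group (0.0538), and Jag1 gained one with the cycle term (0.0487).

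Over all genes 1522 were called rhythmic in Ctrl, against 839 without a filter, 918 without Ctrl CT44, and 1002 and 810 with fibroblast or mural markers added. Higher counts were 2053 with DESeq2, 2249 without SCNx CT32 and 2223 without Ctrl CT4 and SCNx CT32. A difference was called for 314, against 589 with DESeq2, 196 without a filter, 504 without Ctrl CT4 and SCNx CT32, 175 to 466 with 1 library left out, and 104 to 195 with covariates. In SCNx edgeR called 0, against 432 with DESeq2, 46 without a filter and 6 without SCNx CT24. For the level edgeR called 0, against 7 with DESeq2 and 3 without SCNx CT32. Of the values for single genes under the alternatives, 1519 counted as unchanged, 21 lost a call, 5 gained one and 7 turned sign. Unchanged means the same side of the threshold, and for fold changes and correlations also the same sign. A shift of the fitted peak was not counted. For Tek in Ctrl, which was not called, the peak lay between 6.8 and 19.3 h.

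Replicate numbers only follow the order of samples and pair no mice. With the time point as a block of 1 Ctrl and 1 SCNx mouse, 0 of the 10 genes differed in level. With 1 mouse per time point, the spread between mice at 1 time cannot be measured.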
